A study of Saccharomyces cerevisiae with 3 samples.

Results

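Messenger RNA levels of 34 genes of the tricarboxylic acid (TCA) cycle, the glyoxylate cycle and gluconeogenesis were followed in the budding yeast Saccharomyces cerevisiae under high hydrostatic pressure and in the cold. The 34 genes were chosen by name, from a list of the enzymes and carriers of these routes, among 6265 genes measured. Each had 1 row on the arrays, and they lie on 14 chromosomes. All cells were of BY4742, a haploid laboratory strain of alpha mating type. The control cells grew at 24 °C and 0.1 MPa, the pressure of the atmosphere, and no holding time is stated for them. The high-pressure cells spent 5 h at 25 MPa without a change from 24 °C. The low-temperature cells spent 5 h at 15 °C without added pressure, at 0.1 MPa. RNA of 3 cultures was pooled for each condition and read on 1 array. There is therefore no replicate and no test between conditions, and precision is limited by the number of arrays. A free-text label names another strain and growth temperature and a rich medium, which go against the sample titles, so the carbon source of the cultures is not given here with certainty.

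In the mitochondrial TCA cycle, acetyl-CoA and oxaloacetate are joined to citrate, which is oxidised stepwise back to oxaloacetate to feed respiration and to supply precursors for amino acids. The glyoxylate cycle skips the steps that release carbon dioxide, so that acetate or ethanol can be built into cell material, and gluconeogenesis turns the resulting oxaloacetate into sugar phosphates. Yeast fed with glucose represses many genes of these last routes, and the activator Cat8 switches them on when glucose is gone. The retrograde regulators Rtg1, Rtg2 and Rtg3 keep the early TCA cycle genes expressed when respiration is impaired.

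The levels are log2 values of robust multiarray average (RMA), which summarises the 15 probe pairs of a gene. Each pair has a perfect-match probe and a mismatch probe with an altered base, which reads background. The words above mismatch are used where the mean perfect-match minus mismatch difference of a gene exceeded 0 at a one-sided level of 5% over the 15 pairs. A gene counted as higher or lower past 1.5-fold, a log2 ratio of 0.585, the size named in the design of the series, where the brighter of the 2 levels reached the 25th percentile of its array. Such a count describes the arrays and is no test. The ratio of perfect-match (PM) intensities is given beside the RMA ratio as a second reading of the same arrays. The median RMA ratio over all 6265 genes was 0.13 for high pressure against control and 0.26 for low temperature against control, so ratios are also given relative to that median gene where this matters. Centring the arrays on their medians moved these medians to -0.22 and -0.29. Of the 4 marker genes that carry deletions in BY4742, 3 were above mismatch on no array and HIS3 was above it on all arrays. LEU2, one of the 3, still had levels of 6.01, 6.92 and 7.58, so levels without such signal can differ past 1.5-fold between arrays. MF(ALPHA)1, the alpha-factor gene, had levels of 13.43, 13.21 and 12.89. The alpha-specific STE3, at 8.98, 9.89 and 9.12, and SAG1, at 11.955, 12.004 and 10.245, were above mismatch on all arrays. The a-specific STE2 was also above mismatch on all arrays, with levels of 5.38, 5.83 and 5.70. AGA2, likewise a-specific, was so in the control and under pressure at 6.23 and 5.90, with 6.15 in the cold. MFA2, the other a-specific gene read, was above mismatch on no array, at 9.06, 9.05 and 9.06.

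The members fell into a part with signal above mismatch and a part without. On all 3 arrays 23 of 34 members were above mismatch, 5 were so on some arrays, and 6 on none. All 11 mitochondrial TCA cycle genes were above mismatch on every array. The 6 without such signal were MLS1, a malate synthase of the glyoxylate cycle, PCK1 and FBP1, the phosphoenolpyruvate carboxykinase and fructose-bisphosphatase of gluconeogenesis, ACS1, an acetyl-CoA synthetase, SFC1, the succinate-fumarate carrier, and CIT3, a citrate and methylcitrate synthase.

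Of the 8 members known as Cat8 targets, 2 were above mismatch on all arrays, MDH2 and IDP2, beside 2886 of all 6265 genes. PCK1 had RMA levels of 6.11 in the control, 6.54 under pressure and 6.39 in the cold, with PM intensities of 252, 277 and 488 against mismatch intensities of 196, 192 and 238. FBP1 had RMA levels of 4.95, 4.85 and 5.40 in the same order, with PM intensities of 300.0, 385 and 470.0 against mismatch intensities of 189, 182 and 192. Mean PM exceeded mean mismatch for both genes, but the difference missed the limit over the 15 pairs. No fold is given for these 2 genes, which were not above mismatch on any array. MLS1 lay at 4.39, 4.36 and 4.63, SFC1 at 3.73, 3.80 and 3.94, and CIT3 at 4.54, 4.09 and 4.15. ICL1, the isocitrate lyase that opens the glyoxylate cycle, was above mismatch only on the low-temperature array, with levels of 5.65, 5.15 and 6.23. The activator gene CAT8 had 4.41, 4.42 and 4.41 and was also not above mismatch on any array.

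**Figure D1:**
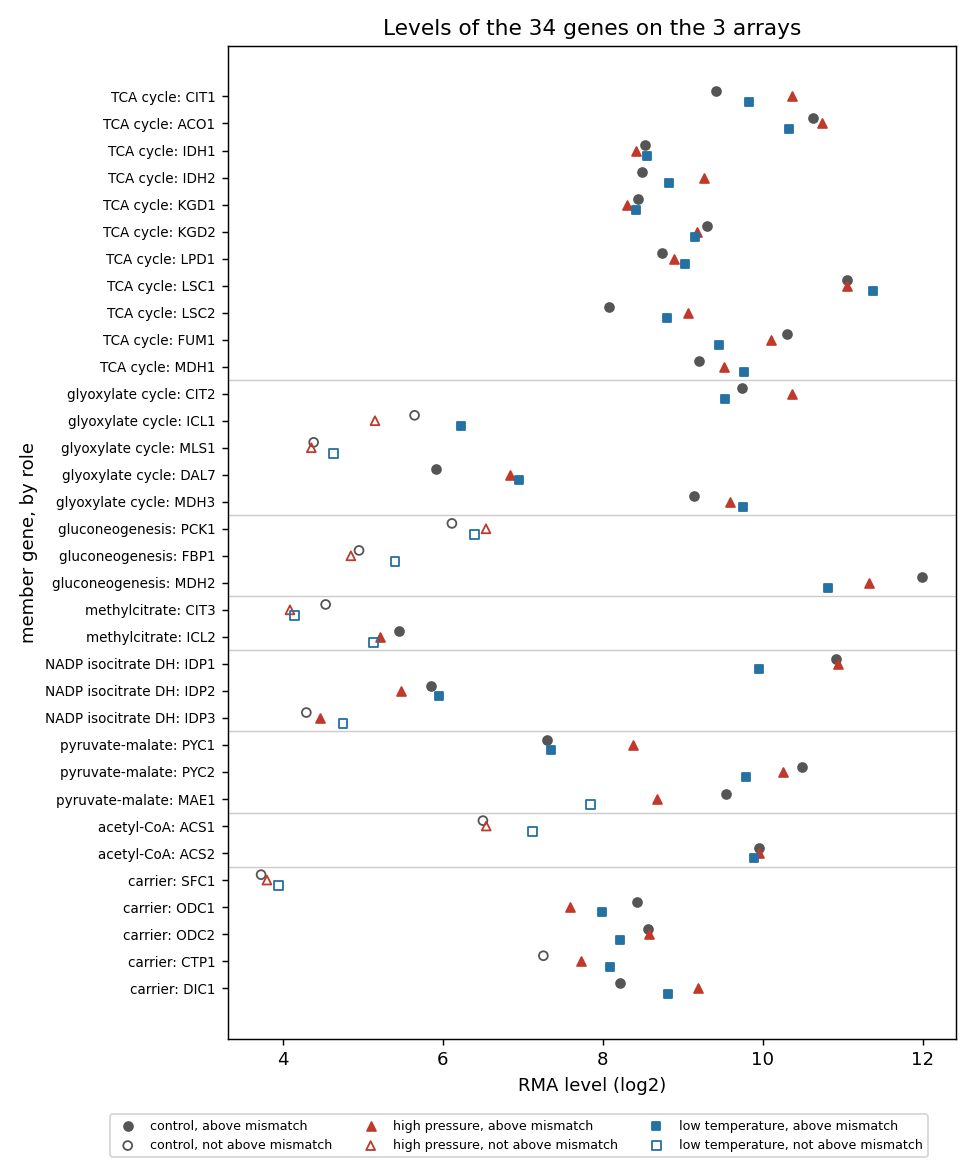
RMA levels (log2, horizontal axis) of the 34 genes, grouped by role, with 1 point for each array. Filled points are above mismatch and open points are not, and no error bar can be drawn because each condition has 1 array. The 11 TCA cycle genes have filled points on all 3 arrays, while MLS1, PCK1, FBP1, CIT3, ACS1 and SFC1 have open points on all 3. Probes differ between genes, so only points of the same gene may be compared.

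In the comparison of high pressure with the control, of the 34 members 7 were higher and 3 lower past 1.5-fold, or 20.6% and 8.82%, against 28.1% of all genes tested that were higher and 12.2% that were lower. The members' shares, taken over all 34, were thus not above the background in either direction, which is taken over the genes that reached the floor on level. The floor was reached by 29 members. The members were brighter than most genes, with a median level in the control of 8.47 against 6.43 over all rows, and the background was not matched on level. Of the 23 members above mismatch on all arrays, 7 were higher and 2 lower, or 30.4% and 8.70%. The members' median RMA ratio was 0.022, against 0.13 for all genes, and their ratios ran from -0.87 to 1.08. With PM intensities 8 members were higher and 1 lower, beside 23.7% and 5.11% of all genes, and 6 of the 7 and 1 of the 3 were among them. A call in all 5 scalings compared (RMA levels as deposited, centred or quantile normalized, and PM intensities with and without centring) was held by 4 higher members and 1 lower member, beside 11.6% and 4.67% of all genes tested.

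In the TCA cycle 3 of 11 genes were higher under pressure and 0 lower, and the same 3 were higher with PM intensities. The share of 27.3% is near the 28.1% of all genes. CIT1, the mitochondrial citrate synthase that starts the cycle, had RMA levels of 9.42 in the control, 10.37 under pressure and 9.84 in the cold. Its ratio under pressure was 0.95 (1.93-fold), and 1.21 with PM intensities. LSC2, a subunit of succinyl-CoA ligase, had 8.08, 9.07 and 8.81. Its ratio under pressure was 0.99 (1.99-fold), with a PM ratio of 0.89. IDH2, a subunit of the NAD-dependent isocitrate dehydrogenase, had 8.49, 9.27 and 8.84, with a ratio of 0.78 (1.71-fold) and a PM ratio of 1.05. By RMA as deposited the high-pressure array was the highest and the control the lowest for all 3 genes. The PM intensities of LSC2 were 409, 759 and 890, highest in the cold. The median PM intensity of the arrays, 278, 327 and 400, was highest there too. With PM intensities centred, the LSC2 ratios were 0.66 under pressure and 0.60 in the cold. The call for IDH2 was absent with the arrays centred and with quantile normalization, whereas those for CIT1 and LSC2 held in all 5 scalings.

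The other 8 TCA cycle genes were within 1.5-fold under pressure, with RMA ratios from -0.19 to 0.31. ACO1, the aconitase, had levels of 10.63, 10.74 and 10.33. KGD1 and KGD2, subunits of 2-oxoglutarate dehydrogenase, had ratios of -0.14 and -0.13 under pressure, and LPD1, the dihydrolipoamide dehydrogenase that this complex shares with pyruvate dehydrogenase, had 0.14. FUM1, the fumarase, had -0.19, and MDH1, the mitochondrial malate dehydrogenase, 0.31. LSC1, the partner of LSC2, lay at 11.05 on both arrays, and IDH1, the partner of IDH2, at 8.53 and 8.41.

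Outside the TCA cycle, 4 members were higher under pressure. PYC1, a pyruvate carboxylase that makes oxaloacetate from pyruvate in the cytosol, had RMA levels of 7.30 in the control, 8.38 under pressure and 7.35 in the cold. Its ratio under pressure was 1.08 (2.11-fold), the highest of the members by RMA as deposited or centred, with PM intensities of 307, 608 and 376 and a PM ratio of 0.99. With PM intensities, centred or not, and with quantile normalization CIT1 was above it. The pressure array stood apart for this gene, and control and cold differed by 0.047 on the log2 scale. DIC1, the mitochondrial dicarboxylate carrier, had 8.21, 9.19 and 8.82, with a ratio of 0.98 (1.98-fold) and a PM ratio of 1.00. The calls for PYC1 and DIC1 held in all 5 scalings.

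CIT2, the peroxisomal citrate synthase whose transcript is the classical reporter of retrograde signalling, had levels of 9.74, 10.37 and 9.53. Its ratio under pressure of 0.63 (1.55-fold) and PM ratio of 0.70 lay just past the limit, and the call was absent in the 3 scalings that bring the arrays together. DAL7, a malate synthase known from growth on allantoin as nitrogen source, had 5.91, 6.84 and 6.95, with a ratio of 0.93 (1.91-fold) but a PM ratio of 0.34, inside the limit. Of the 5 members known as Rtg targets, CIT1, CIT2 and IDH2 were higher under pressure, with RMA ratios of 0.95, 0.63 and 0.78, beside 28.1% of all genes that were higher. The calls for CIT2 and IDH2 were absent in other scalings, as given above. ACO1 and IDH1 of the same list had 0.11 and -0.12.

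The 3 members lower under pressure were MAE1, ODC1 and MDH2. MAE1, the mitochondrial malic enzyme that turns malate into pyruvate, had RMA levels of 9.54 in the control, 8.67 under pressure and 7.85 in the cold. Its ratio under pressure was -0.87 (1.83-fold lower), with a PM ratio of -0.63, and it was lower in all 5 scalings. ODC1, a carrier that exchanges 2-oxoglutarate and related acids across the mitochondrial inner membrane, had 8.43, 7.59 and 7.99, with a ratio of -0.84 (1.80-fold lower) and a PM ratio of -0.50. MDH2, the cytosolic malate dehydrogenase of gluconeogenesis, had 12.00, 11.33 and 10.81, with a ratio of -0.67 (1.59-fold lower) and a PM ratio of -0.51. For ODC1 and MDH2 the PM ratio was inside the limit, although in the same direction.

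The cold was compared with the control array used above, so both sets of ratios share its error. Of the 34 members 6 were higher and 5 lower, or 17.6% and 14.7%, against 34.7% of all genes tested that were higher and 9.6% that were lower. Over all 6265 genes, whether or not they reached the floor, the shares were 27.0% and 7.47%. The median RMA ratio of the members was 0.15 against 0.26 for all genes, with a range from -1.69 to 1.04. These counts moved strongly with the scaling. With PM intensities 15 members were higher and 1 lower, beside 46% and 2.28% of all genes, and after centring each array on its median 12 were lower and 0 higher, beside 30.8% and 14.5%. In all 5 scalings 0 members were higher and 1, MAE1, was lower, beside 9.44% and 1.85% of all genes tested.

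MAE1 was the member with the lowest ratio in the cold, -1.69 on the RMA scale. Its level in the cold was not above mismatch, so it was at least 3.23-fold lower, where "at least" marks a dim level that was not above mismatch and is no guaranteed minimum. Its PM intensity was 1142 in the control, 739 under pressure and 528 in the cold, a PM ratio of -1.11 for cold against control. Its mismatch intensity was 284, 316 and 434, so the mismatch signal was higher where the perfect-match signal was lower. MDH2 had a ratio of -1.18 in the cold (2.27-fold lower), with PM intensities of 3181, 2234 and 2395 and a PM ratio of -0.41. IDP1, the mitochondrial NADP-dependent isocitrate dehydrogenase, had RMA levels of 10.91, 10.94 and 9.96. Its ratio in the cold was -0.95 (1.93-fold lower), with a PM ratio of -0.16.

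FUM1 had RMA levels of 10.30, 10.11 and 9.46 and a ratio in the cold of -0.85 (1.80-fold lower). Its PM intensities of 1625, 1744 and 1623 were nearly level, a PM ratio of -0.0018. PYC2, the second pyruvate carboxylase, had levels of 10.49, 10.26 and 9.79, with a ratio in the cold of -0.70 (1.63-fold lower) but a PM ratio of 0.056. The PM ratio of the median gene in the cold was 0.41, so all 5 genes lay below the median gene in both readings. For these genes the RMA ratio relative to the median gene was -1.95 for MAE1, -1.45 for MDH2, -1.21 for IDP1, -1.11 for FUM1 and -0.96 for PYC2.

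Among the 6 members higher in the cold, DAL7 had the highest RMA ratio, 1.04 (2.06-fold), with a PM ratio of 0.53. LSC2 had 0.73 (1.66-fold), DIC1 0.61 (1.52-fold) and MDH3, the peroxisomal malate dehydrogenase, 0.61 (1.53-fold). The PM ratios of these 3 were 1.12, 0.79 and 1.21. CTP1, the mitochondrial citrate carrier, had levels of 7.26, 7.73 and 8.09 and was at least 1.78-fold higher, since its control level was not above mismatch, but its PM ratio was 0.35. ACS1 was counted as higher with levels of 6.50, 6.54 and 7.12, but it was above mismatch on none of the arrays. Of the TCA cycle genes the other 9 lay within 1.5-fold, with RMA ratios from -0.30 for ACO1 to 0.56 for MDH1. CIT1 and IDH2, higher under pressure, had RMA ratios of 0.41 and 0.34 in the cold, and PM ratios of 1.13 and 1.01.

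**Figure D2:**
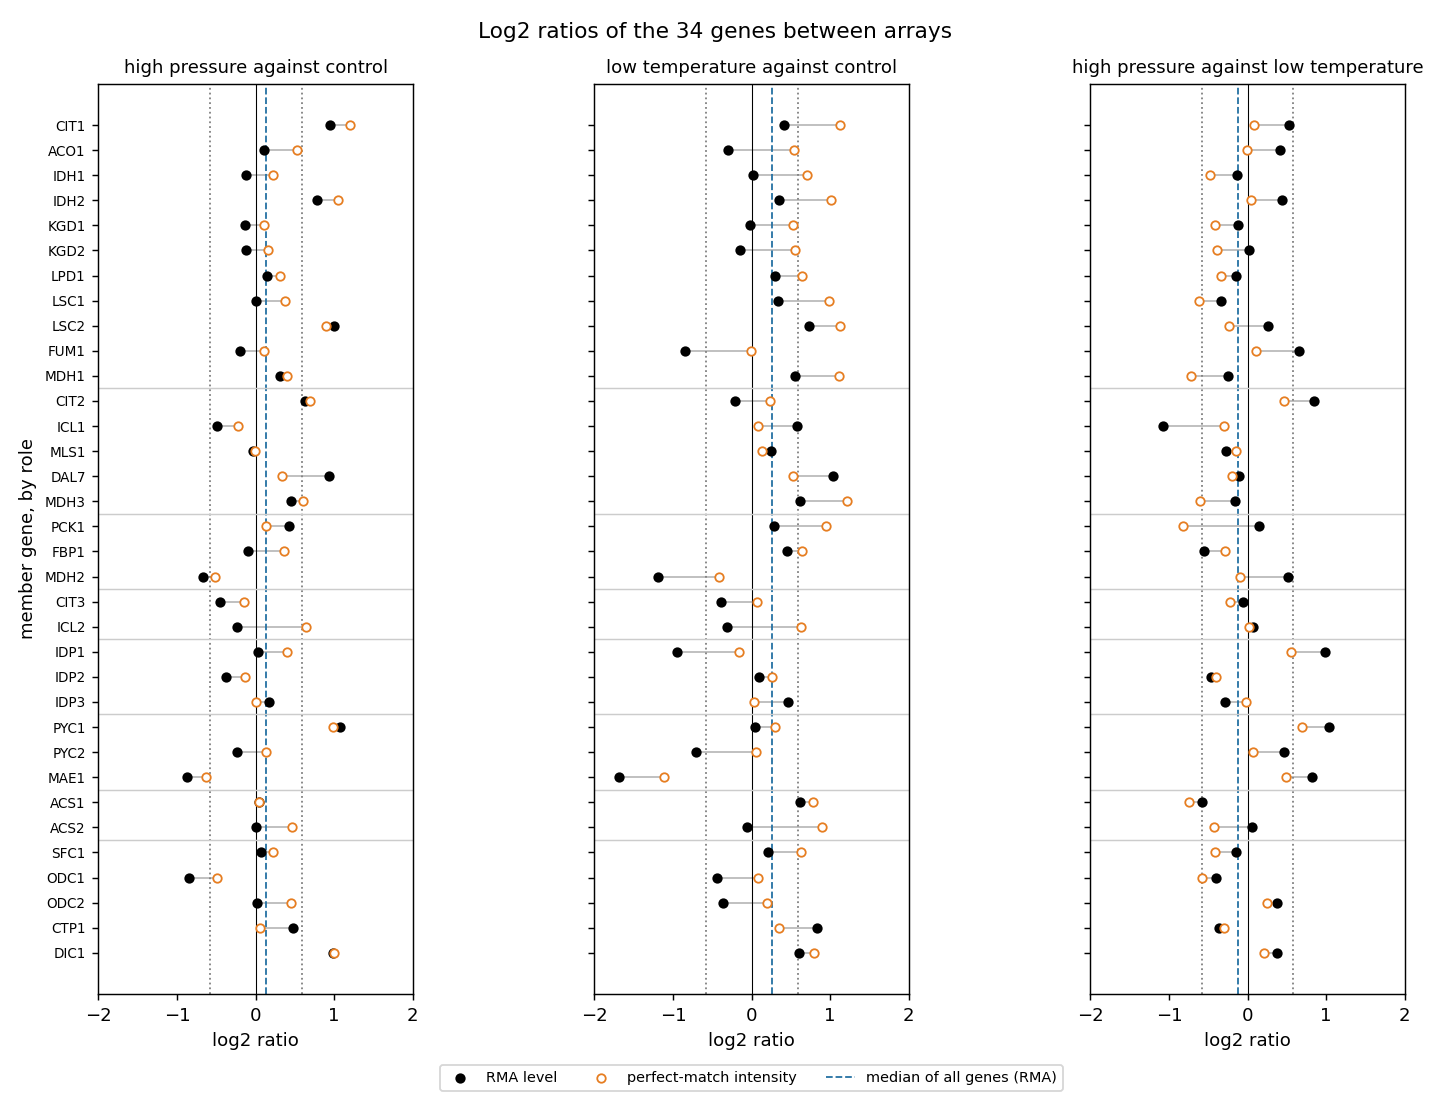
Log2 ratios (horizontal axes) of the 34 genes, listed by role, for the 3 comparisons of arrays. Black points are ratios of RMA levels, open points ratios of perfect-match intensities, joined by a line for each gene. Dotted lines mark 1.5-fold and the dashed line the median of all genes by RMA. In the cold the open points lie to the right of the black points for most genes, as for FUM1 at -0.0018 and -0.85, while MAE1 lies left of the limit in both.

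The 2 treated arrays were also set against each other, which does not involve the control. Of the 34 members 5 were higher under pressure than in the cold and 1 lower, or 14.7% and 2.94%, against 4.28% and 10.1% of all genes tested. Over all 6265 genes, whether or not they reached the floor, the shares were 3.27% and 7.76%. The 5 higher members were PYC1, IDP1, CIT2, MAE1 and FUM1. PYC1 had a ratio of 1.03 (2.04-fold) and a PM ratio of 0.69, and it was the 1 member higher in all 5 scalings, with 0 lower, beside 1.36% and 2.42% of all genes tested. IDP1 had 0.98 (1.98-fold) with a PM ratio of 0.56, and CIT2 0.84 (1.79-fold) with 0.46. MAE1 was at least 1.77-fold higher with a PM ratio of 0.49, and FUM1 had 0.65 (1.57-fold) with 0.10. ICL1 was the member lower under pressure, at -1.08 and at least 2.11-fold lower by RMA, but its PM intensities of 182 under pressure and 224 in the cold gave a PM ratio of -0.30. With PM intensities 1 member was higher and 5 were lower, beside 1.65% and 16.9% of all genes.

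Members of the same enzyme or reaction were set side by side, since the difference between the ratios of 2 genes on the same arrays is free of any shift that moves all genes alike. In 10 pairs both genes were above mismatch on all arrays. The ratios of the 2 genes differed by more than 1.5-fold in 6 of the 10 pairs under pressure, in 5 in the cold and in 5 between the treated arrays. Over all pairs of the 2886 genes above mismatch on all arrays the shares were 58.7%, 59.3% and 29.1%. By RMA and by PM intensities alike the counts were 5, 3 and 3 of 10, beside 42.9%, 39.8% and 17.6% of all pairs. The count against the control is therefore near the background, and the pairs share genes among the malate dehydrogenases.

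Of the 3 malate dehydrogenases, which interconvert malate and oxaloacetate in separate compartments, MDH2 stood apart from the others. The mitochondrial MDH1 had RMA levels of 9.21 in the control, 9.52 under pressure and 9.77 in the cold, and the peroxisomal MDH3 had 9.14, 9.59 and 9.75. By RMA as deposited both were highest in the cold and lowest in the control, whereas the cytosolic MDH2 was highest in the control. With RMA arrays centred, MDH1 had ratios of -0.034 under pressure and 0.0046 in the cold, and MDH3 0.11 and 0.059. That order of MDH1 and MDH3 was then absent, whereas MDH2 had -1.01 and -1.74. The ratio of MDH3 exceeded that of MDH2 by 1.12 under pressure and 1.80 in the cold, and by 1.12 and 1.62 with PM intensities. MDH3 and MDH1 differed by 0.14 and 0.054.

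The pyruvate carboxylases also diverged under pressure. PYC2 had a ratio of -0.23 there, and that of PYC1 exceeded it by 1.31, or by 0.85 with PM intensities. These 2 genes encode close homologues, and whether their probes read each other's transcripts was not tested. IDH2 exceeded IDH1 by 0.90 under pressure and by 0.33 in the cold (0.82 and 0.31 with PM intensities). LSC2 exceeded LSC1 by 0.99 and 0.39 (0.52 and 0.14 with PM intensities). ODC2, the other oxodicarboxylate carrier, had 8.57, 8.59 and 8.21 and exceeded ODC1 by 0.86 under pressure but by 0.082 in the cold.

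KGD1 and KGD2 kept close in both, with differences of 0.015 and -0.13. Among the NADP-dependent isocitrate dehydrogenases, the cytosolic IDP2 had levels of 5.86, 5.48 and 5.95, and its ratio exceeded that of IDP1 by 1.04 in the cold (0.42 with PM intensities). The peroxisomal IDP3, at 4.29, 4.46 and 4.75, was above mismatch under pressure only. ACS2, the acetyl-CoA synthetase used on glucose, had levels of 9.95, 9.95 and 9.89, within 1.5-fold in every comparison by RMA, with a PM ratio of 0.89 in the cold. ICL2, a methylisocitrate lyase of propionate use, had 5.45, 5.21 and 5.14, while its PM ratios against the control were 0.64 and 0.63.

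**Figure D3:**
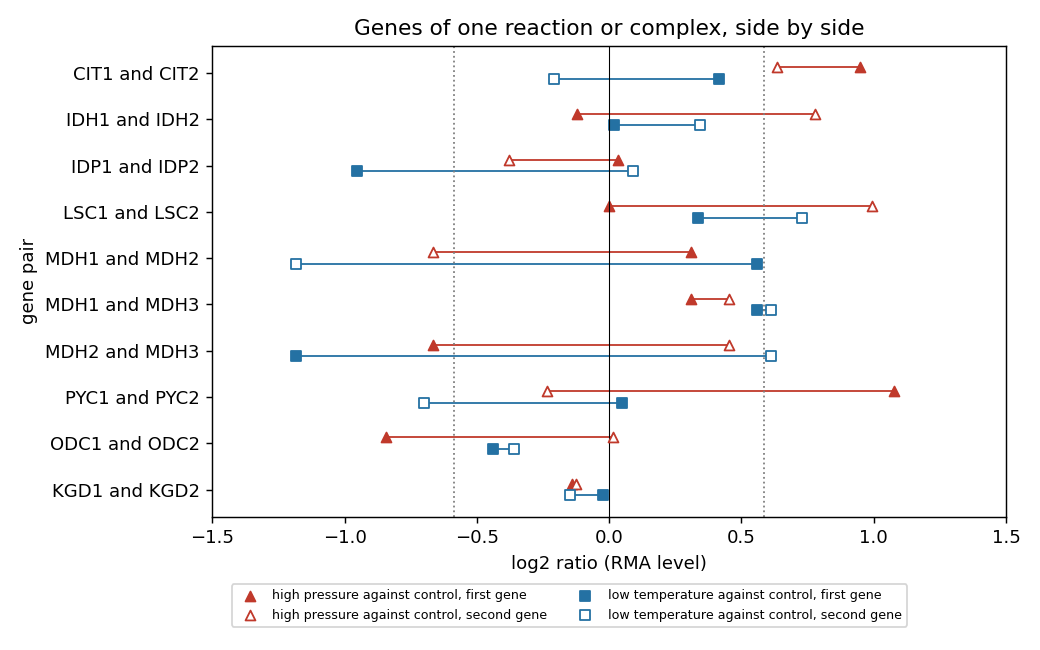
RMA log2 ratios (horizontal axis) of the 10 pairs of genes above mismatch on all arrays. Filled points are the first gene of a pair, open points the second, triangles are high pressure and squares low temperature against control, and dotted lines mark 1.5-fold. The lines for MDH2 and MDH3 are long in both comparisons, those for KGD1 and KGD2 short, and that for ODC1 and ODC2 is long under pressure only.

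Genes that feed or control these routes were read from 11 lists with 69 genes, none of them members. Under pressure 17 were higher and 8 lower, or 24.6% and 11.6%, near the 28.1% and 12.2% of all genes. In the cold 22 were higher and 6 lower, or 31.9% and 8.70%, beside 34.7% and 9.6%, and 27.0% and 7.47% of all 6265. The lists that follow are small, and their counts are to be read against these shares of all genes. List shares are taken over all genes of the list. Shares of all genes are those over the genes that reached the floor, unless all 6265 are named. Genes of ethanol and acetate use had 4 of 7 lower under pressure and 0 higher, beside 12.2% and 28.1% of all genes, and their median ratio was -0.82 (-0.38 with PM intensities). In the cold 2 were lower and 1 higher, beside 9.6% and 34.7%. ALD3, a stress-induced cytosolic aldehyde dehydrogenase, had RMA levels of 8.40 in the control, 6.93 under pressure and 9.14 in the cold, the pressure array lowest and the cold array highest. ALD4, the mitochondrial form that makes acetate, had 9.98, 8.84 and 10.11, and ALD6, the main cytosolic form, 11.14, 10.06 and 10.22. Their ratios under pressure were -1.47 (2.78-fold lower), -1.14 (2.21-fold lower) and -1.08 (2.12-fold lower), with PM ratios of -0.69, -0.64 and -0.62. ALD6 was lower in the cold too, at -0.92 (1.89-fold lower), but with a PM ratio of 0.096. ALD5 was lower in both, at -0.82 (1.76-fold lower) and -0.99 (1.99-fold lower), with PM ratios of -0.38 and -0.14. ALD3 and ALD4 were also lower under pressure than in the cold, at -2.21 (4.63-fold lower) and -1.27 (2.41-fold lower). ACH1, a CoA transferase that acts on acetate, had -0.13 under pressure.

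Of the mitochondrial pyruvate carrier, MPC1 had levels of 8.0, 9.38 and 9.59, higher by 1.38 under pressure (2.61-fold) and by 1.59 in the cold (3.02-fold), with calls in all 5 scalings. MPC3, the subunit used in respiratory growth, had 6.18, 6.63 and 7.47, higher in the cold by 1.30 (2.46-fold), and MPC2, the subunit of fermenting cells, had 11.16, 11.30 and 11.11. In pyruvate dehydrogenase, PDX1 was counted as higher with levels of 5.64, 6.73 and 7.44, but was not above mismatch on any array. PDA1, its E1 alpha subunit, had a ratio of -0.076 under pressure. SDH1, the flavoprotein of succinate dehydrogenase, had 8.06, 8.15 and 8.75, a ratio of 0.69 in the cold (1.61-fold), and SDH4 had 0.039. In the cold the calls for MPC3 and SDH1 held in 4 and 2 of the 5 scalings. Of the further carriers, AGC1, for aspartate and glutamate, was higher under pressure by 0.92 (1.90-fold), a call held in 3 scalings. YHM2, for citrate and oxoglutarate, was higher under pressure than in the cold by 1.00 (2.00-fold), in all 5 scalings. Against the control YHM2 had 0.15 under pressure and -0.85 in the cold (1.81-fold lower, with a PM ratio of -0.29).

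Of 8 genes for the GID ubiquitin ligase, which marks gluconeogenic enzymes for degradation when glucose returns, 5 were higher and 1 lower under pressure, and 5 higher and 0 lower in the cold. These are 62.5% higher in both, beside 28.1% and 34.7% of all genes. The list's median ratios were 0.68 and 0.96 (0.49 and 0.60 with PM intensities). No gene of this list was above mismatch on all arrays, beside 2886 of all 6265 genes. UBC8, the ubiquitin-conjugating enzyme of the route, had 5.56, 6.99 and 7.02, at least 2.69-fold and 2.75-fold higher, with PM ratios of 1.02 and 1.12. GID8 was at least 1.51-fold and 2.05-fold higher. VID28 and GID7 had levels of 5.55, 6.67 and 6.93 and of 6.10, 6.70 and 6.87, without signal above mismatch. Neither had VID24, at 8.76, 8.08 and 9.06.

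Of 13 regulators of glucose repression and carbon source, 5 were higher and 2 lower under pressure, and 5 higher and 1 lower in the cold. The 38.5% that were higher in both stand beside 28.1% and 34.7% of all genes. SNF4, the activating subunit of the Snf1 kinase, had 7.99, 8.68 and 8.97, ratios of 0.68 (1.60-fold) and 0.98 (1.97-fold), and SNF1, the kinase itself, had 5.10, 6.26 and 6.68, the last not above mismatch. REG1, a regulator of the phosphatase that acts on Snf1, was at least 2.84-fold higher in the cold, and HAP5, a subunit of the CCAAT-binding activator, at least 2.61-fold. Their PM ratios were smaller, 0.73 and 0.60. Of 4 retrograde regulators 1 was higher and 0 lower in each comparison with the control, and RTG3 had ratios of 0.73 and 0.94 but PM ratios of 0.22 and 0.47. Of 10 allantoin genes, the route of DAL7, 1 was higher and 1 lower under pressure and 3 and 1 in the cold. DAL5 of that list had 0.0018 under pressure. Of 4 carnitine shuttle genes 1 was higher in each comparison with the control, CAT2 in the cold without signal above mismatch, and YAT1 had -0.10 under pressure. Of 5 genes of lactate and glycerol use 0 were higher under pressure and 1 in the cold, CYB2, at 4.83, 5.33 and 6.06 and without signal above mismatch. Also counted were PKP2 (higher in both), OAC1 (lower in the cold), FYV10 and RDS2 (higher in both), ADR1 and HAP4 (lower under pressure), ERT1 (lower in the cold), DAL80 (higher in both), DUR1,2 (lower in both), DAL3 and DAL82 (higher in the cold) and YAT2 (higher under pressure). RTG3, ALD5 and these genes other than DAL82 were chosen after their values were seen. With PM intensities all of them were inside the limit against the control. The PM ratio was 0.014 for HAP4 under pressure and 0.045 for ERT1 in the cold, against the direction counted. DAL80, DAL3 and DAL82 were above mismatch on no array.

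**Figure D4:**
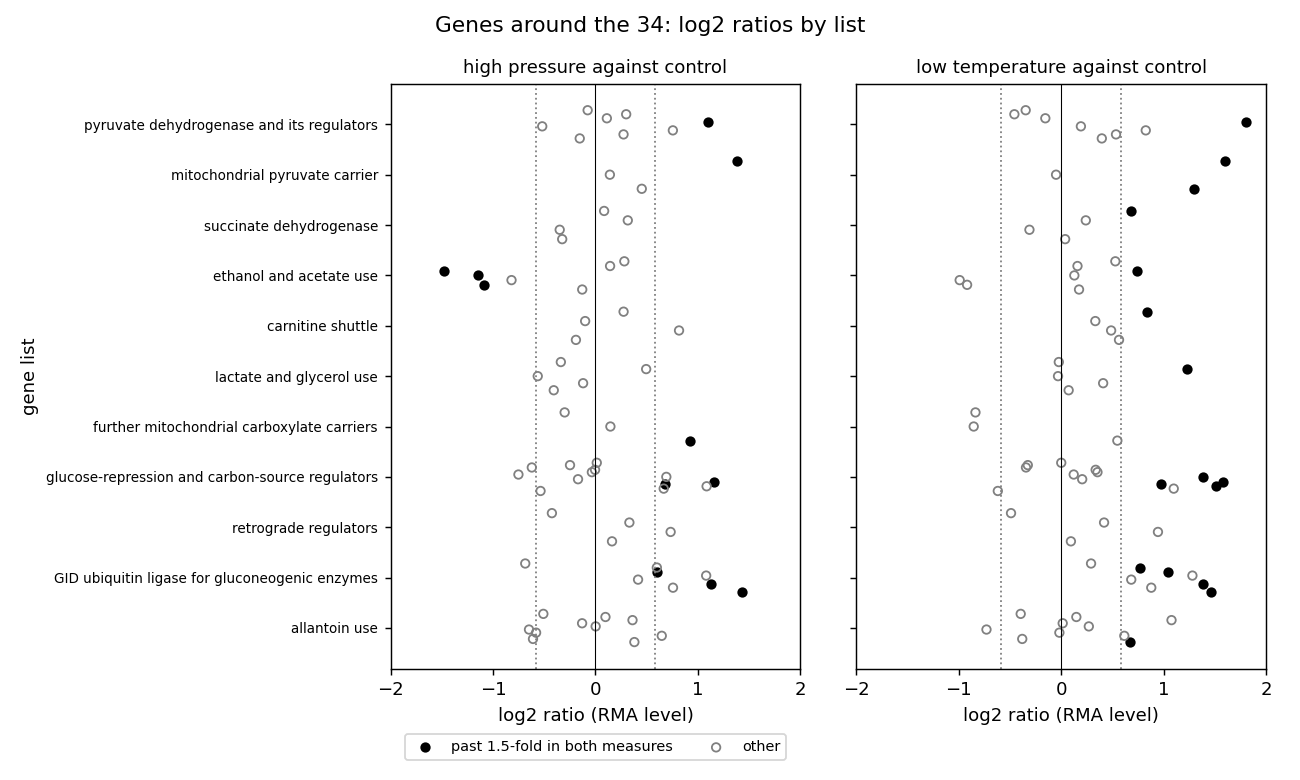
RMA log2 ratios (horizontal axes) of the 69 genes around the 34, by list, for high pressure and low temperature against control. Filled points are past 1.5-fold in the same direction with RMA levels and with perfect-match intensities, and dotted lines mark 1.5-fold. In ethanol and acetate use ALD3, ALD4 and ALD6 are the filled points left of the limit under pressure, with none there in the cold, where ALD5 and ALD6 are open points left of it.

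Ratios against the control were lower for longer genes over the 5762 genes with a known length, with Spearman coefficients of -0.29 under pressure and -0.32 in the cold. Over the 34 members the coefficients were -0.16 and -0.24, and their median length was 1387.5 bases against 1230 for all genes. Between the treated arrays the coefficient was 0.050 over all genes and 0.27 over the members. These coefficients describe genes that share arrays and probe design. With the trend on length removed, the median ratio of the members was 0.040 under pressure and 0.20 in the cold. In that setting 6 and 5 members were higher, and no share of all genes is given beside these counts.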

How the data were processed

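NimbleGen 1-colour arrays were used, 1 for each of 3 conditions. The authors deposited log2 levels made with RMA and quantile normalization, per the labels' protocols. The deposited gene levels were not level between arrays, with medians of 6.43 in the control, 6.77 under pressure and 6.98 in the cold. Their 25th percentiles were 5.36, 5.57 and 5.77 in the same order. The source of this offset was not tested, and it enters the counts made with RMA levels as deposited. The submitters' processing notes name RMA too. Its version, the background correction and the genome build are not given in the sources used here, so no coordinates are printed. The authors also deposited mean perfect-match and mismatch intensities per gene on a linear scale, with the coefficient of variation over 15 probe pairs, per the file headers. The sample titles and design text set the groups. Of 6337 rows, RefSeq R64 gave a name to 1723 through the locus tag, to 3953 through the symbol and to 152 through a synonym, and 509 kept the name in the files. Rows of 1 gene were averaged, for 70 genes. Above mismatch means a t value (14 degrees of freedom) over 1.76, taken from the deposited difference and its coefficient of variation. For "at least", the dim level was the higher of its own and the lowest level above mismatch on that array. No test compares conditions. Alternatives were perfect-match intensities, arrays centred on their medians, quantile normalization of gene values, no filter on low levels, and only members above mismatch on the brighter array. Centred perfect-match intensities and removal of the length trend (running median of 501 genes) were added after seeing the data. The 5 scalings are RMA levels, these centred or quantile normalized, and perfect-match intensities with and without centring. The code that makes the calls was run on simulated data with known changes, which says nothing of the error of these arrays. All members are named. Other genes are named where both readings pass 1.5-fold the same way, at most 4 a list, or for the ratio nearest to 0 in some lists; CAT8 is named by that rule. Members and lists were chosen with earlier results of these data known. Python 3.11.15, pandas 2.3.3 and scipy 1.17.1 were used.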

Additional observations from a re-analysis of the deposited data

How the results depend on the processing

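With perfect-match intensities the median ratio under pressure was 0.27 and 1 member was lower. In the cold the median was 0.54, and 15 members were higher and 1 lower. Between the treated arrays it was -0.23, and 1 was higher and 5 lower. With centring on array medians the median under pressure was -0.32 and 5 members were lower, beside 25.4% of all genes. In the cold it was -0.40, and 0 were higher and 12 lower, beside 14.5% and 30.8%. Between the treated arrays it was 0.19 and 10 were higher, beside 8.78%. Quantile normalization of the gene values gave 5 lower, beside 18.7% of all genes, and a median of -0.077 under pressure, 0 higher and 8 lower, beside 20.2% and 19.5%, and a median of -0.13 in the cold, and a median of 0.0093 between the treated arrays. Centred perfect-match intensities gave 3 lower, beside 12.7%, and a median of 0.013 in the cold, and 0 lower, beside 4.16%, and a median of 0.063 between the treated arrays. Among the 27 members above mismatch on the brighter array the median was 0.018 in the cold and 0.076 between the treated arrays. Without the length trend 2 were lower under pressure than in the cold, with no share of all genes given for that setting. PYC2 in the cold turned to 0.056 with perfect-match intensities and CTP1 to -0.17 with these centred. The cause of these moves was not tested. Dropping the filter on low levels left the counts as they were. No paired analysis was possible because each condition has 1 array, and for the same reason no array could be left out. No fold is given for PCK1, FBP1, MLS1, SFC1, CIT3 and ACS1, which were not above mismatch on any array.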
